A study of Mus musculus with 2 samples.

Results

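The motile cilium axoneme genes were examined in single cells from the cerebral cortex of newborn mice. They were taken by symbol: the axonemal dynein heavy chains (Dnah), the dynein intermediate chains and light intermediate chain (Dnaic, Dnali1), the radial spoke genes (Rsph), the numbered cilia and flagella associated protein genes (Cfap), the tektins (Tekt) and Foxj1. This rule found 57 of the 27998 genes counted. Single-cell RNA sequencing (10x Genomics droplets, with transcripts counted as unique molecular identifiers, UMIs) had been run on 1 wild-type (WT) library and 1 STINGf/f;Nestin-Cre (cKO) library at postnatal day 0, both C57BL/6. In the cKO mice Cre is driven by the Nestin promoter, which is active in neural progenitors and their descendants, so cells of other lineages need not lose STING (gene symbol Tmem173), an adaptor in the sensing of cytosolic DNA. The labels call the control animals WT, whereas the study's text calls the control single-cell sample both STINGfl/fl and wild type. There was 1 library per genotype, with no statement of how many pups it pooled, so no difference below has a replicate check or a test. Intervals are 95% intervals that cover counting error only, not the spread between cells or animals.

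Motile cilia beat by means of the axoneme, a cylinder of paired microtubules around a central pair. Outer and inner dynein arms slide the paired microtubules past each other, radial spokes pass signals from the central pair to the arms, and tektins and many Cfap proteins line or bridge the microtubules. Foxj1 is the transcription factor that switches on the genes of motile cilia. In the brain these cilia belong mainly to ependymal cells, which line the ventricles, descend from radial glia, acquire their cilia around and after birth and move cerebrospinal fluid.

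The WT library held 10715 barcodes with 69554624 UMIs and the cKO library 9198 barcodes with 67448785 UMIs. After filters, 6615 WT cells (median 6560 UMIs) and 5973 cKO cells (median 7537 UMIs) were kept. Tmem173 had 128 UMIs in the WT cells and 18 in the cKO cells, and none in the ependymal-lineage-like cells of either library. The libraries differed in more than genotype. Transcripts of 4 Y-linked genes were abundant in the WT library (9805 UMIs against 6) and Xist in the cKO library (71349 UMIs against 10), so sex and genotype cannot be told apart. Of 30 clusters, 9 drew at least 90% of their cells from 1 library and held 46.6% of all kept cells. The libraries shared 19 barcodes, none of them in an ependymal-lineage-like cell.

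Cells were clustered with the axoneme genes of the symbol rule left out and other cilium genes kept in. Of the clusters, 1 with 55 cells carried the markers of the ependymal lineage, none of them taken by the rule. All 13 markers were detected in both libraries, at 8445 UMIs per 1000000 UMIs (counts scaled by depth, CPM) in WT and 6441 CPM in cKO, against 48.1 and 32.2 CPM in all other kept cells. Its leading genes included Dynlrb2, Rsph1, Meig1, Foxj1 and Fam183b. These cells are called ependymal-lineage-like here. They numbered 44 in WT (0.665% of kept cells, 0.484 to 0.892) and 11 in cKO (0.184%, 0.092 to 0.329), with medians of 15986 and 19269 UMIs per cell. They held 749536 and 201517 UMIs in all, and these totals set the precision of every value within the group. With a stricter filter on genes and mitochondrial UMIs, the cluster best matching the markers had 39 WT and 34 cKO cells and the difference in share, cKO minus WT, was 0.193 percentage points (-0.97 to 1.40) in place of -0.481 (-0.726 to -0.249). With cells picked by marker UMIs it was -0.34 (-0.83 to 0.15), and both of these intervals include 0. Of the cells under the stricter filter, 28 and 31 had been radial glia/astrocyte-like in the clustering used here, and 10 and 3 were ependymal-lineage-like.

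Markers of other cell types were also read in the group. The 7 markers of the choroid plexus, which also bears motile cilia, summed to 85.4 CPM in WT and 24.8 CPM in cKO, against 3.13 and 2.37 CPM in all other cells. Most of these UMIs were of Folr1 (48 in WT and 3 in cKO) and Otx2 (13 and 2), while Ttr, Kl and Kcne2 were at 0 in both libraries. Radial glia and astrocyte markers stood at 2811 and 2288 CPM, with all 8 detected in both libraries, against 2977 and 1685 CPM in all other cells. Per cell, however, their median was lower in WT, at 748 CPM (0 to 12771), than in cKO, at 1916 CPM (156 to 5987). Neuron markers stood at 280 and 189 CPM, against 6487 and 6536 CPM in all other cells. Cycling markers stood at 995 and 1057 CPM, against 398 and 278 CPM in all other cells, with Mki67 at 0 UMIs in cKO. The part of these other transcripts in the values below was not tested.

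The axoneme genes were concentrated in these few cells. Their 8477 UMIs in WT made up 11310 CPM (11070 to 11553) and their 1782 UMIs in cKO made up 8843 CPM (8437 to 9263). In the other 10 cell groups the summed level lay between 122 and 581 CPM. The radial glia/astrocyte-like cells had the highest of these levels, 551 CPM in WT and 581 CPM in cKO, and the microglia-like cells the lowest, 122 and 128 CPM. The 44 WT cells, 0.665% of the library, held 35.2% of all axoneme gene UMIs, and the 11 cKO cells held 10.6%. At least 1 UMI in the group was found for 56 of the 57 genes in WT and for 54 in cKO. Dnah17, an outer arm heavy chain best known from sperm, had none in either library.

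**Figure D1:**
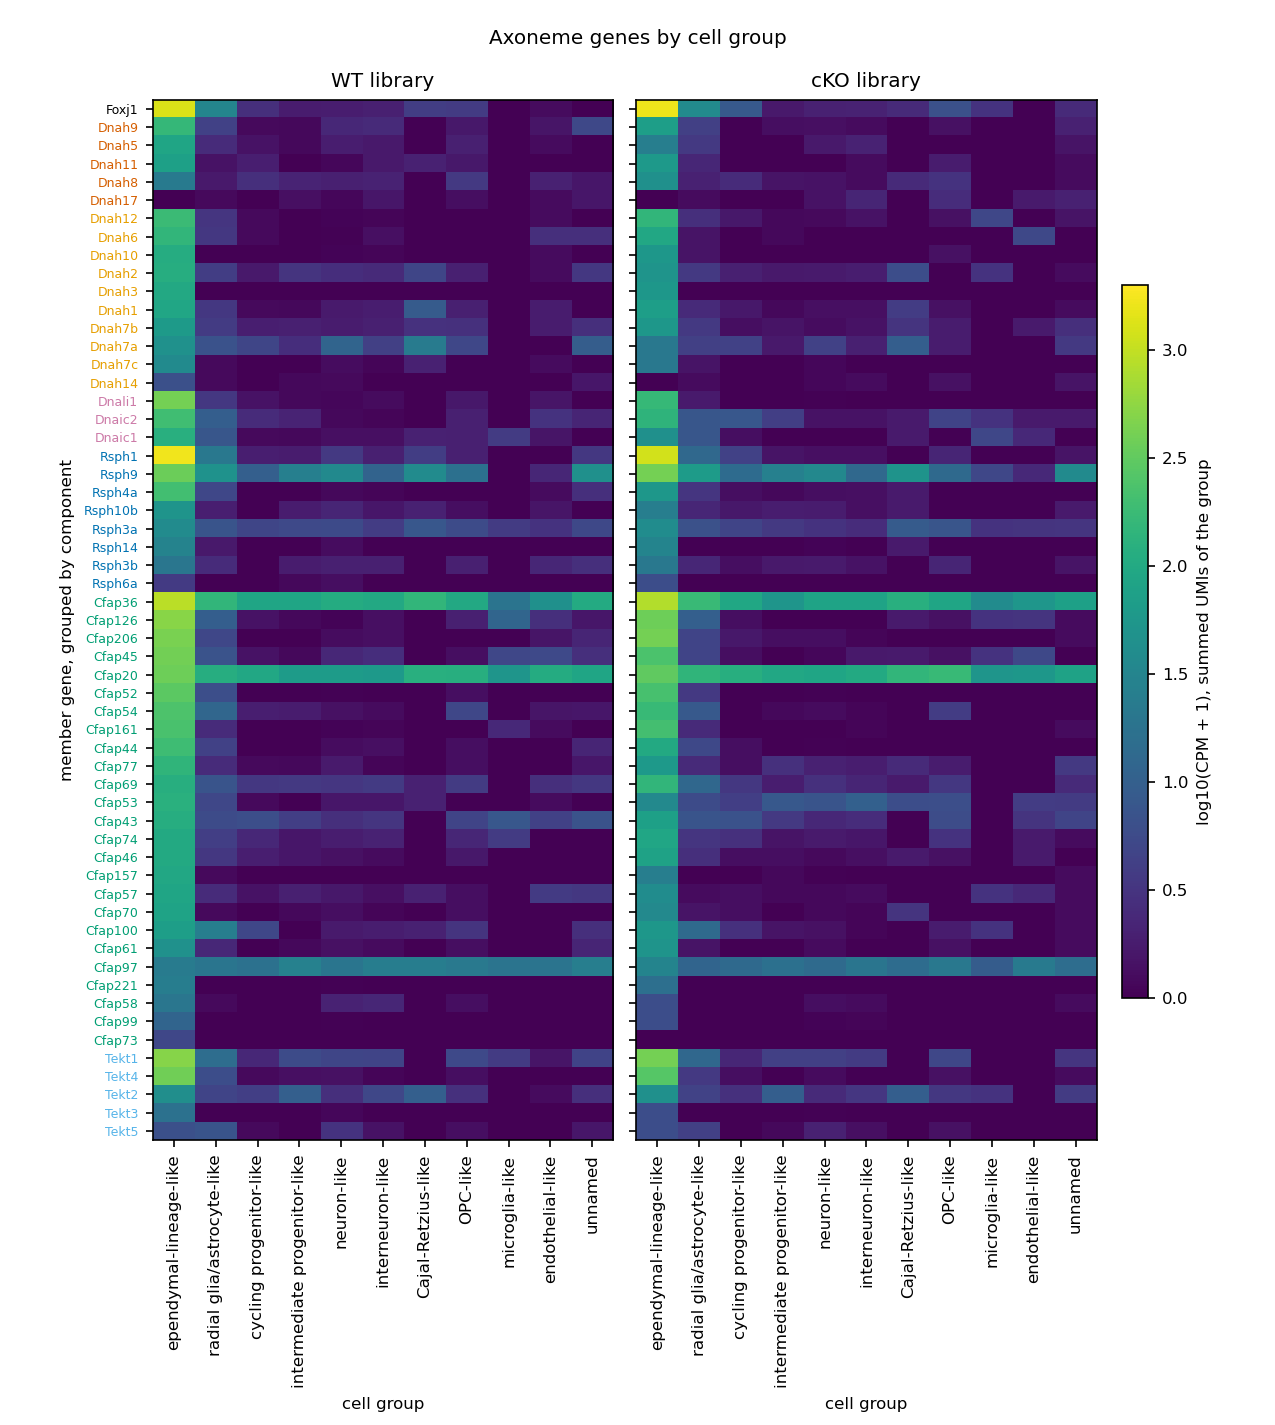
Heat map of the axoneme genes (rows, ordered by component) in 11 cell groups (columns), WT and cKO side by side, coloured by log10(CPM + 1). Brighter colours are higher levels. The ependymal-lineage-like column is the brightest for most genes in both panels, while Cfap36, Cfap20 and Cfap97 have visible levels in every group.

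Gene by gene, 52 of the 55 axoneme genes with at least 10 UMIs in WT were at least 4-fold higher in the ependymal-lineage-like cells than in all other cells, against 12.7% of all genes. In cKO it was 45 of 48, against 13.2%. Over both libraries together, 33 of 56 genes had at least 50% of their UMIs in the 55 cells, against 1.92% of all genes. These counts describe a cluster built from the same cells and are not tests. Dnah3, Cfap221, Cfap157, Cfap99, Tekt3, Dnah10 and Rsph6a had fewer than 10 UMIs outside the group in both libraries together. They reached the limit for this pooled count only through UMIs in the group, which favours a high share. The pooled shares join 44 WT and 11 cKO cells and differed by library. For Rsph4a the share was 84.6% in WT and 32.4% in cKO, for Cfap53 70.5% and 2.08%, and for Dnah5 62.7% and 11.9%. Such a share falls when the group has fewer cells. For Foxj1 it was 84.1% and 58.9%, though its level was 390-fold that of all other cells in both libraries. That fold was 404 in WT and 130 in cKO for Rsph4a, 176 and 5.79 for Cfap53, and 124 and 36.8 for Dnah5. Dnah3, an inner arm heavy chain, had 72 UMIs in the WT cells of the group and 11 in the cKO cells, and none in any other kept cell. Cfap157 had 94.9% of its UMIs in the group, Dnah10 93.1%, Dnali1 92.6% and Rsph1 85.8%.

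Other members were spread over the cortex. Cfap97 had 1.19% of its UMIs in the group, Cfap20 3.39%, Dnah7a 7.01%, Cfap36 7.70% and Rsph9 10.4%. These 5 genes had the most UMIs outside the group. Cfap36 had 5471 UMIs there in WT and 4665 in cKO, and Cfap20, a protein of the inner junction of the paired microtubules, had 4247 and 5398. Rsph9 had 1439 and 1602, Cfap97 had 1121 and 789, and Dnah7a had 365 and 139. The symbol rule therefore takes in genes that are not restricted to ciliated cells, and totals over all cells are weighted toward them.

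**Figure D2:**
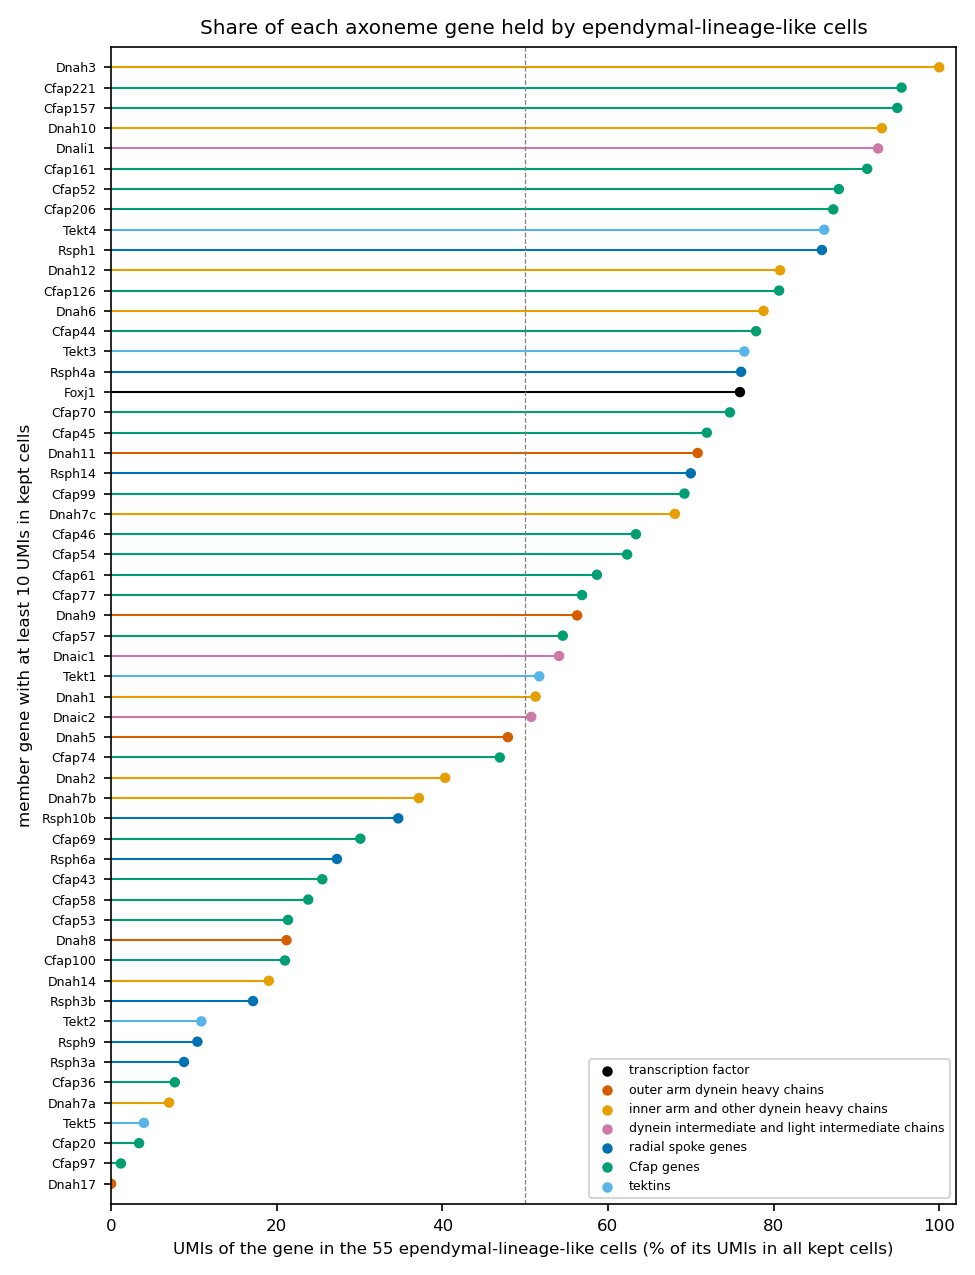
Percentage of each axoneme gene's UMIs in kept cells of both libraries that fell in the 55 ependymal-lineage-like cells, for the 56 genes with at least 10 UMIs. The points run from 0% for Dnah17 to 100% for Dnah3, and 33 genes lie at or above the 50% line.

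Dnah6, an inner arm dynein heavy chain, lies at chr6:73017606-73221651 on the minus strand (GENCODE M21, GRCm38, the source of all gene positions here). Its exons overlap only an antisense gene, Gm20560. Of its UMIs 78.8% fell in the ependymal-lineage-like cells, 111 in WT (148 CPM, 122 to 178) and 19 in cKO (94.3 CPM, 56.8 to 147). The ratio of cKO to WT, on the log2 scale used for all ratios here, was -0.65 (-1.44 to 0.06), an interval that reaches past 0. A UMI of Dnah6 was seen in 34 of 44 WT cells and 5 of 11 cKO cells, with medians of 2 and 0 UMIs per cell. After each cell was thinned to 3000 UMIs, a UMI remained in 16 of 40 cells in WT (40.0%, interval 24.9 to 56.7) and in 3 of 11 in cKO (27.3%, interval 6.02 to 61.0), so the intervals overlapped. Among 3 settings added after the data were seen, the ratio was -0.52 (-1.32 to 0.21) with WT cells within the UMI range of the cKO cells and -0.98 (-6.41 to 1.80) in cells with at most 5% mitochondrial UMIs. Without the cKO cell richest in axoneme UMIs it was -0.90 (-1.82 to -0.09). That cell held 5 of the 19 cKO UMIs of Dnah6 and no WT cell was left out, so a lower ratio followed from the choice. As the mean of the CPM of each cell the ratio was -1.12, with no interval. In that mean a cell of few UMIs weighs as much as any other, and the shallowest WT cell held 3 Dnah6 UMIs of 869. With other choices of cells the ratio was -2.91 (-6.04 to -0.89) under the stricter filter. It was -2.04 (-2.83 to -1.32) in cells picked by marker UMIs without clustering. Both choices took in many radial glia/astrocyte-like cells, and ependymal-lineage-like cells were a smaller part of them in cKO. Under the stricter filter these were 10 of 39 WT and 3 of 34 cKO cells.

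Outside the group Dnah6 was near the limit of detection, with 26 UMIs in WT and 9 in cKO. The next levels after the ependymal-lineage-like cells were 2.47 CPM in WT radial glia/astrocyte-like cells (11 UMIs, 1.23 to 4.43) and 1.81 CPM in WT endothelial-like cells (7 UMIs, 0.729 to 3.74), which did not differ beyond their intervals. In cKO these groups had 0.50 CPM (2 UMIs, 0.061 to 1.81) and 4.25 CPM (6 UMIs, 1.56 to 9.26). Neuron-like cells had 1 UMI in WT and none in cKO. Cajal-Retzius-like, OPC-like and microglia-like cells had none in either library.

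Promoter sequences of 47 of the 57 genes were matched in RefSeq (GRCm38.p6, 250 bases before to 50 after the start site). The letters of the X-box, the element bound by RFX transcription factors, which act with Foxj1 on cilium genes, were searched on both strands. The search letters were picked after these sequences had been read, so the comparison with all genes below is not a test. GTTGCC was present for 16 of 47 genes (34.0%), against 14.1% of all genes. The inverted repeat GTNNCCNNGGNNAC was present for 5 (10.6%), against 2.16% of all genes, and GTTGCNNNGCAAC for 8 (17.0%), against 0.252%. A GTTGCC can be the first letters of either repeat, so matches can overlap, and Dnah7a, Dnah7b and Dnah7c, which hold GTTGCNNNGCAAC, are near-identical copies. These matches describe the letters only, and binding was not measured. Promoters are shown for Dnah6, for Dnah10, the member with 2 copies of GTTGCC and no repeat among those shown, for Cfap206 and for Tekt4, which held all 3 patterns. Capitals mark the matches. Dnah6 lies at chr6:73221582-73221881 (minus strand), Dnah10 at chr5:124724835-124725134 (plus), Cfap206 at chr4:34730157-34730456 (minus) and Tekt4 at chr17:25471340-25471639 (plus).
Dnah6: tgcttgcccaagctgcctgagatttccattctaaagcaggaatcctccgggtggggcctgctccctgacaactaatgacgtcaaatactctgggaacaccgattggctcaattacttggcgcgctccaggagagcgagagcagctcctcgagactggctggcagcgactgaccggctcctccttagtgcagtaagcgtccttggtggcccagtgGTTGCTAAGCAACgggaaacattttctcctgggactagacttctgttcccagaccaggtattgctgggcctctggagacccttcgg
Dnah10: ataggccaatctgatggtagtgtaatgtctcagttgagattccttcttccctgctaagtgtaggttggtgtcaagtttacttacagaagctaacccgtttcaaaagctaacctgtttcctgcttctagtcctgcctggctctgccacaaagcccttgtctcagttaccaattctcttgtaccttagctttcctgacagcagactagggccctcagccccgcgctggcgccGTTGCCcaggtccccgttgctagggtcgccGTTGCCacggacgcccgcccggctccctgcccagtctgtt
Cfap206: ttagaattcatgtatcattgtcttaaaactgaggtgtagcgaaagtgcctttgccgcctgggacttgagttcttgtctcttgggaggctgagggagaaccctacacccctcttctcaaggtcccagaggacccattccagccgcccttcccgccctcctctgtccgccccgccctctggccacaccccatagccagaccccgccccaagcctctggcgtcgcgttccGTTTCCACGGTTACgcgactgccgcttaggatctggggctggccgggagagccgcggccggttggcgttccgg
Tekt4: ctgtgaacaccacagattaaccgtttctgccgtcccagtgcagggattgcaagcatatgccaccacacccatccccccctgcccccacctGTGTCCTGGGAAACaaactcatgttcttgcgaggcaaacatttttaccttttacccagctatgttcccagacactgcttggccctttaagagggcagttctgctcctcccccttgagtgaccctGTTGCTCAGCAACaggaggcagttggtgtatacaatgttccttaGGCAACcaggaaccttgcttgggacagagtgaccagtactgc

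The question the libraries pose is whether cells with motile cilium transcripts differed between genotypes within their own group, where the number of such cells does not enter. Summed over all 57 genes, the log2 ratio of cKO over WT within the group was -0.35 (-0.43 to -0.28). Of the 51 genes with at least 10 UMIs, 41 had a lower level in cKO, and their median ratio was -0.51, beside a median of -0.10 over the 9248 genes measured in these cells. At least 2-fold lower in cKO were 16 of the 51, against 18.2% of all genes, and at least 2-fold higher was 1 (Dnah8), against 7.47%. The limit of 10 UMIs was set on both libraries together, and the WT cells held more UMIs (749536 against 201517). Some of the 16, such as Cfap58 (14 and 1 UMIs) and Tekt3 (12 and 1), passed it through WT alone, which favours a low ratio. The same limit applied to all genes. The choice of cells moved the ratios and counts. The summed ratio was -1.44 under the stricter filter and -1.16 in cells picked by marker UMIs, with 35 of 44 and 40 of 52 measured members at least 2-fold lower. The share of all genes at least 2-fold lower was not computed for these choices, so these counts have no background. The number of ependymal-lineage-like cells does enter there. They were 10 of 39 WT and 3 of 34 cKO cells under the stricter filter, and 39 of 138 and 10 of 104 by marker UMIs. Of the cells picked by marker UMIs, those in the cluster had 11434 and 9000 CPM of axoneme genes, and the rest 750 and 738 CPM. Within the group, the summed ratio without Foxj1 was -0.47 (-0.56 to -0.39). Without Foxj1 and the broadly expressed Cfap20, Cfap36, Cfap97 and Rsph9 it was -0.57 (-0.66 to -0.48). The 6 genes with fewer than 10 UMIs in the group were Cfap73, Cfap99, Dnah14, Dnah17, Rsph6a and Tekt5.

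Foxj1 stood on the other side of 0. It had 985 UMIs in the WT cells (1314 CPM, 1233 to 1399) and 331 in the cKO cells (1643 CPM, 1470 to 1829), a log2 ratio of 0.32 (0.14 to 0.50). Per cell its level ran from 566 to 5146 CPM in WT (median 1174) and from 519 to 3739 CPM in cKO (median 1667), so the cells overlapped widely. The highest WT level came from 6 UMIs in a cell of 1166 UMIs. Foxj1 was detected in 44 of 44 WT and 11 of 11 cKO cells. Sets with other cells added gave the opposite sign. Cells picked by marker UMIs without clustering gave -0.79, and the stricter filter gave -1.01. The first selection took in 63 WT and 71 cKO radial glia/astrocyte-like cells from outside the cluster, and the cluster under the stricter filter 28 and 31. Of the cells picked by marker UMIs, only 39 of 138 in WT and 10 of 104 in cKO were in the cluster. Those had 1386 CPM of Foxj1 in WT and 1692 CPM in cKO. The picked cells outside it had 53.2 and 65.6 CPM, so each part was higher in cKO.

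The outer arm heavy chains summed to 252 UMIs in WT and 40 in cKO, a log2 ratio of -0.76 (-1.28 to -0.27). Dnah5 and Dnah9, the main outer arm motors, were both lower in cKO. Dnah9 had 116 UMIs in WT (155 CPM) and 14 in cKO (69.5 CPM), a ratio of -1.16 (-2.07 to -0.35). Dnah5 had 64 UMIs (85.4 CPM) and 5 (24.8 CPM), a ratio of -1.78 (-3.45 to -0.49). Dnah11, found near the base of the cilium, had 56 and 12 UMIs and a ratio of -0.33 (-1.36 to 0.59). Dnah8, an outer arm chain best known from sperm, had 16 UMIs in WT and 9 in cKO, a ratio of 1.07 with an interval from -0.30 to 2.33.

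The inner arm and other heavy chains summed to 664 UMIs in WT and 114 in cKO, -0.65 (-0.95 to -0.36), and all 9 measured members had a lower level in cKO. Dnah10 and Dnah2 encode the heavy chains of the inner arm with paired heads. Dnah10 had 83 UMIs (111 CPM) and 11 (54.6 CPM), a ratio of -1.02 (-2.08 to -0.11). Dnah2 had 84 UMIs (112 CPM) and 10 (49.6 CPM), -1.18 (-2.29 to -0.23). Dnah12, an inner arm chain with a single head, was closer between the libraries at 134 and 30 UMIs, with a ratio of -0.26 (-0.89 to 0.32). Dnah7a, Dnah7b and Dnah7c share 96.9 to 97.3% of their sequence over long stretches, so reads could be assigned to the wrong copy, and their separate values are uncertain.

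The smaller dynein chains had the lowest summed ratio of the 6 components, -1.05 (-1.43 to -0.69), from 540 UMIs in WT and 70 in cKO. Dnali1, the light intermediate chain of inner arms, carried much of it with 306 UMIs (408 CPM) and 33 (164 CPM), a ratio of -1.32 (-1.88 to -0.80). Dnaic1 and Dnaic2 are the intermediate chains of the outer arm. Dnaic1 had 90 UMIs (120 CPM) and 9 (44.7 CPM), -1.43 (-2.60 to -0.44), and Dnaic2 had 144 (192 CPM) and 28 (139 CPM), -0.47 (-1.11 to 0.12). Exons of Dnali1 overlap Gnl2 on the opposite strand and those of Dnaic1 overlap Enho. Such an overlap was found for 17 of the 57 genes, Dnah10 and Dnah2 included, and whether counting used the strand is not given in the sources used here.

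The radial spoke genes summed to 1802 and 355 UMIs, -0.45 (-0.62 to -0.28), but the median of the 7 measured was 0.02. The sum was led by Rsph1, a spoke head protein, with 1277 UMIs in WT (1704 CPM) and 238 in cKO (1181 CPM), a ratio of -0.53 (-0.73 to -0.33). Rsph4a, also of the spoke head, had 148 UMIs (197 CPM) and 11 (54.6 CPM), -1.85 (-2.89 to -0.97). Rsph9, another protein of the spoke head, did not share this difference, with 272 UMIs (363 CPM) and 82 (407 CPM), 0.17 (-0.21 to 0.53). Rsph3a and Rsph3b are 99.2% identical over 1823 bases and cannot be separated with certainty.

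The Cfap genes summed to 3529 and 725 UMIs, -0.39 (-0.51 to -0.27), and 20 of the 23 measured had a lower level in cKO. Those with the most UMIs had ratios between -0.46 and -0.08. Cfap36 had 678 and 168 UMIs (905 and 834 CPM, -0.12), Cfap126 had 384 and 75 (512 and 372 CPM, -0.46, interval -0.84 to -0.10) and Cfap206, a radial spoke protein, had 326 and 83 (435 and 412 CPM, -0.08). Several others also had intervals below 0. Cfap45 and Cfap53 lie inside the microtubule wall, and Cfap44 helps tether the inner arm with paired heads. Cfap45 had 294 UMIs (392 CPM) and 47 (233 CPM), -0.75 (-1.23 to -0.30). Cfap53 had 93 UMIs (124 CPM) and 7 (34.7 CPM), -1.84 (-3.19 to -0.74). Cfap44 had 142 (189 CPM) and 20 (99.2 CPM), -0.93 (-1.69 to -0.25). Cfap157 and Cfap77 had similar gaps. Cfap157 had 70 and 5 UMIs, -1.91 (-3.58 to -0.62), and Cfap77 had 108 and 12, -1.27 (-2.27 to -0.41). Cfap57 (64 and 8 UMIs, -2.38 to -0.04) and Cfap70 (61 and 7, -2.60 to -0.10) had intervals that ended close to 0.

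The tektins, filament proteins inside the paired microtubules, summed to 705 and 147 UMIs, -0.37 (-0.63 to -0.11). Tekt1 had 371 UMIs (495 CPM) and 82 (407 CPM), -0.28 (-0.65 to 0.07). Tekt4 had 287 (383 CPM) and 54 (268 CPM), -0.51 (-0.96 to -0.09). Tekt2 had few UMIs, 31 and 9, and a wide interval around its ratio of 0.11 (-1.14 to 1.22).

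**Figure D3:**
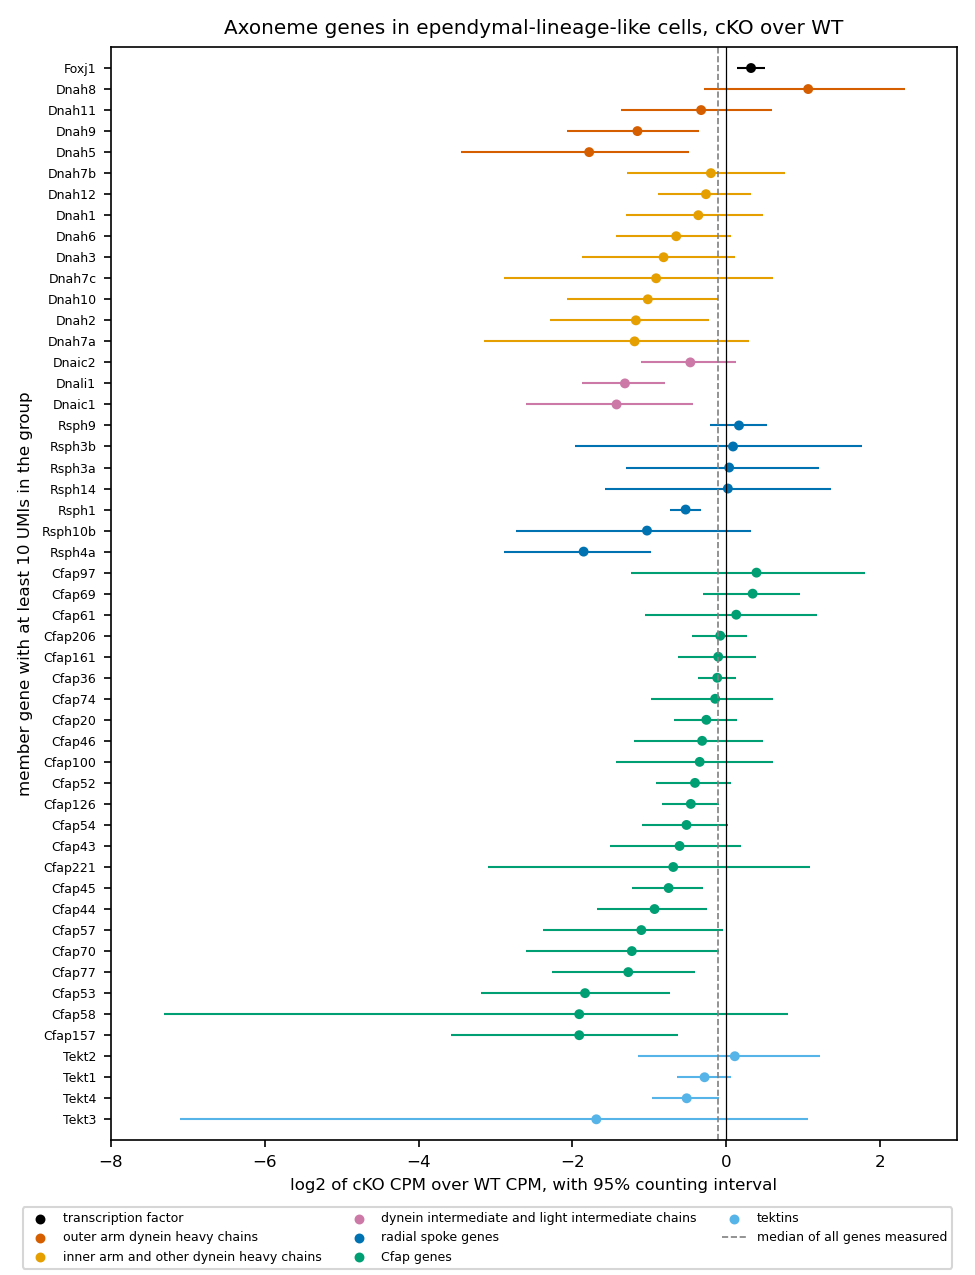
Log2 ratio of cKO over WT within the ependymal-lineage-like cells for the 51 axoneme genes with at least 10 UMIs (points) with 95% intervals for counting error (bars), by component. The dashed line marks the median of all genes, -0.10. Most points lie below 0, from -1.91 for Cfap157 and Cfap58 to 1.07 for Dnah8, and many intervals cross the line.

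Cell by cell, the axoneme genes took 0.379 to 1.73% of a WT cell's UMIs (median 1.14%) and 0.487 to 1.33% of a cKO cell's (median 0.734%). Both ends of the WT range were cells of few UMIs, with 5 axoneme UMIs of 1321 and 15 of 869. Cells under 1% numbered 12 of 44 in WT and 6 of 11 in cKO. After thinning to 3000 UMIs, which left out 4 WT cells, a WT cell had a UMI of 10 to 29 of the 57 genes (median 18.5) and a cKO cell of 5 to 24 (median 13). Unthinned, the ranges were 4 to 50 (median 38) and 18 to 45 (median 31). For the dynein heavy chains the unthinned medians were 8.5 (0 to 13) in WT and 5 (3 to 11) in cKO. The ranges overlapped throughout, and 1 cKO cell alone held 16.4% of that library's axoneme UMIs in the group, against 6.74% for the richest WT cell. Without that cKO cell the summed ratio was -0.42, but no WT cell was left out, so a lower ratio followed from the choice.

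**Figure D4:**
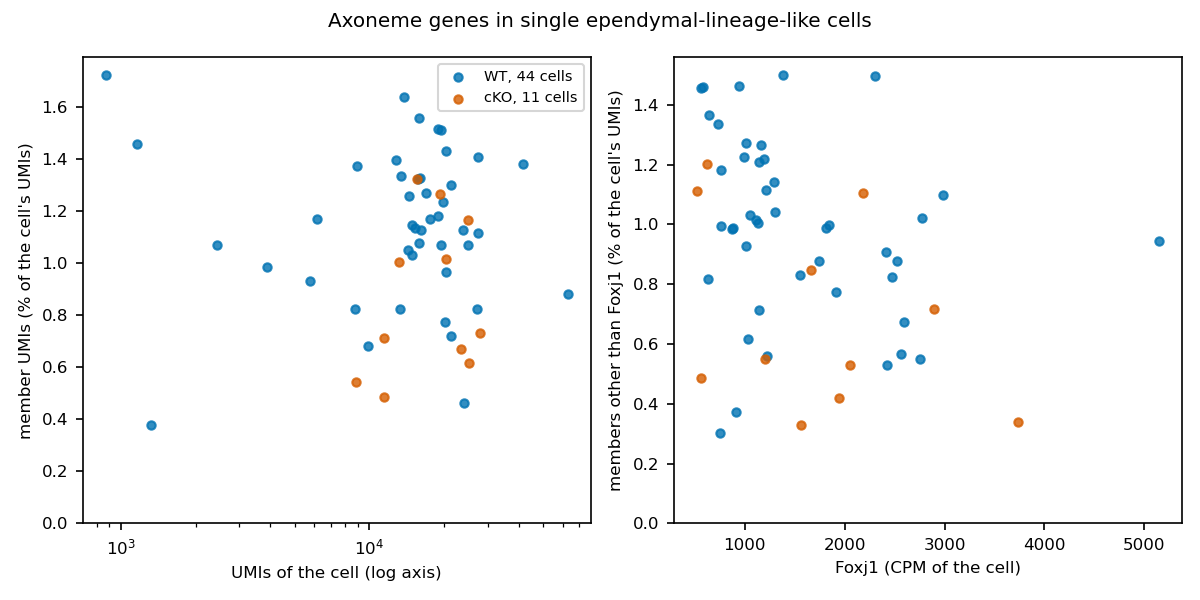
Each point is 1 ependymal-lineage-like cell (44 WT, 11 cKO). Left, axoneme genes as a percentage of the cell's UMIs against its total UMIs on a log axis; right, the axoneme genes other than Foxj1 as a percentage of UMIs against Foxj1 in CPM. The cKO cells lie within the WT range of depth and mostly in the lower part of the axoneme scale, with medians of 0.734% and 1.14%.

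Foxj1 and the rest of the axoneme genes did not go together across these cells. The medians of the other members were 0.997% of UMIs in WT and 0.549% in cKO, while the median of Foxj1 was higher in cKO. Within each library, Spearman's correlation between Foxj1 and the other members was -0.31 over 44 WT cells and -0.31 over 11 cKO cells. This is a description only, since both quantities are shares of the same cell's UMIs and all cells came from 1 library per genotype.

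Of 42 further motile cilium genes that the symbol rule does not take, 41 were found. Summed, they gave 5081 UMIs in WT and 945 in cKO, -0.53 (-0.63 to -0.43), with 33 of 38 measured genes lower in cKO, 10 of them at least 2-fold and none at least 2-fold higher, beside the 18.2% and 7.47% of all genes. The factors that preassemble dynein arms in the cytoplasm had the largest gap but one, -1.11 (-1.40 to -0.83), with all 8 measured lower in cKO. Zmynd10 had 455 UMIs (607 CPM) and 60 (298 CPM), -1.03 (-1.44 to -0.64). Dnaaf1 had 101 and 3 UMIs, -3.18 (-5.48 to -1.59). Lrrc6 (77 and 7 UMIs, -1.56), Dyx1c1 (66 and 5, -1.83) and Dnaaf3 (38 and 2, -2.35) pointed the same way. The 4 genes that dock the outer arms summed to 342 and 40 UMIs, -1.20 (-1.71 to -0.73). Among them, Ttc25 had 106 and 7 UMIs, -2.03 (-3.37 to -0.93), and Ccdc151 (149 and 23) and Ccdc114 (56 and 5) had -0.80 and -1.59.

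Genes that set the repeat along the axoneme and bridge neighbouring microtubules had -0.76 (-1.03 to -0.50) as a sum. Ccdc39, a molecular ruler, had 335 UMIs (447 CPM) and 53 (263 CPM), -0.77 (-1.21 to -0.34), and Ccdc65 and Drc7, of the nexin-dynein regulatory complex, had -1.26 and -1.40. The central apparatus genes had -0.46 (-0.69 to -0.24) as a sum, with 156 and 21 UMIs of Spag17 (interval -1.73 to -0.34) and with Spef2 at -0.66. Spef1 (243 and 58 UMIs, -0.17) and Spag6l (204 and 46, -0.25), those with the most UMIs in this list, had intervals that included 0. Of the remaining genes, Ropn1l (-0.88) and Ak7 (-0.70) were lower in cKO.

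The genes that act before the axoneme is built were mixed. The 9 regulators of motile ciliogenesis summed to 1120 UMIs in WT (1494 CPM) and 291 in cKO (1444 CPM), -0.05 (-0.24 to 0.14). Ccno, needed to multiply centrioles, had 179 UMIs (239 CPM) and 85 (422 CPM), 0.82 (0.43 to 1.20). Deup1, listed as Ccdc67 and part of the structure on which centrioles form, had 457 (610 CPM) and 88 (437 CPM), -0.48 (-0.83 to -0.15). Myb, a transcription factor of early multiciliated cells, had 214 and 57 UMIs, -0.01 (-0.46 to 0.41). Mcidas (63 and 11 UMIs, -0.62), Rfx3 (89 and 17, -0.49), Rfx2 (55 and 16, 0.11), Trp73 (38 and 11, 0.11) and Cdc20b (21 and 6, 0.09) had intervals that included 0, and Gmnc had 4 UMIs and 0. The difference between the regulators and the other components was not tested.

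**Figure D5:**
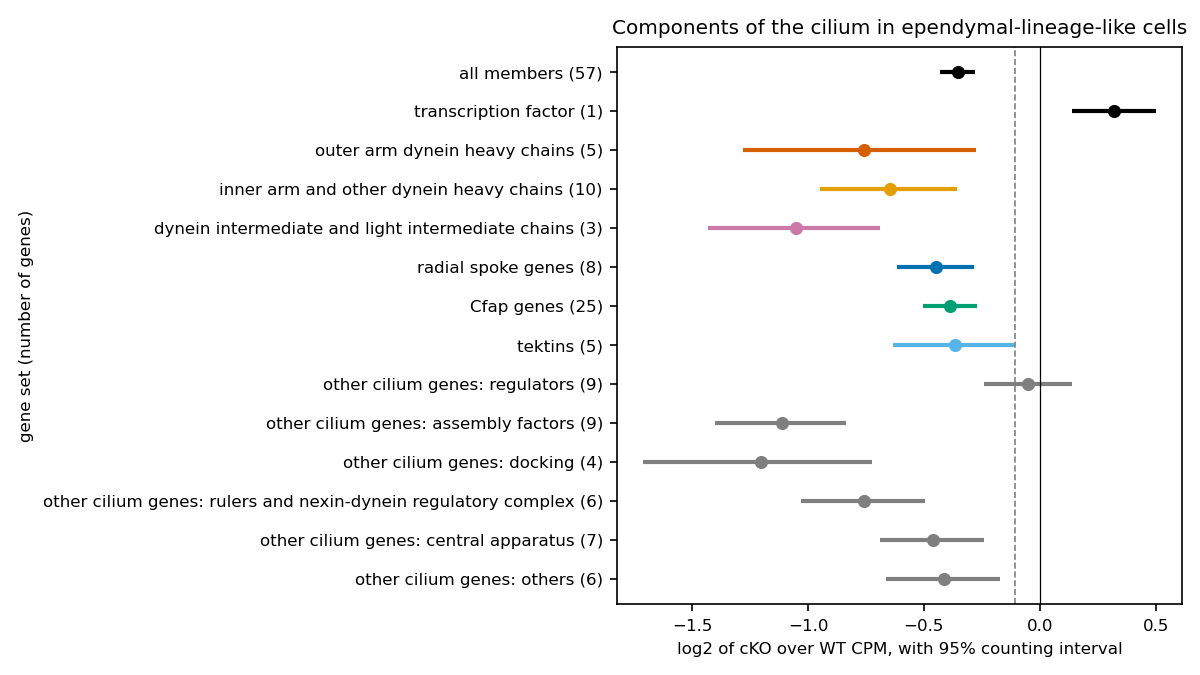
Log2 ratio of cKO over WT of summed UMIs within the ependymal-lineage-like cells, by component of the axoneme genes and by list of other cilium genes, with 95% intervals for counting error. Foxj1 lies above 0 at 0.32, the regulators lie at -0.05, and the remaining sums lie between -0.35 (all axoneme genes) and -1.20 (docking). The dashed line marks the median of all genes, -0.10.

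Outside the ependymal-lineage-like cells the axoneme genes summed to 15588 UMIs in WT and 15037 in cKO, a log2 ratio of -0.04 (-0.07 to -0.01) in which Cfap36, Cfap20, Rsph9 and Cfap97 made up most of the UMIs. Without these and Foxj1 the other 52 gave 3124 and 2352 UMIs, -0.40 (-0.48 to -0.32). The median of the 49 genes measured there was -0.57, beside -0.26 over all genes. At least 2-fold lower in cKO were 12 of 49, against 21% of all genes, and at least 2-fold higher were 3 (Dnah17, Cfap77 and Cfap53), against 4.17%. Of the 5 members with the most UMIs outside the group, Dnah7a had the widest gap, with a ratio of -1.38 there. It was read mainly in neuron-like cells, with 235 UMIs in WT (10.7 CPM) and 79 in cKO (3.37 CPM), -1.66 (-2.05 to -1.29). The neuron-like cells of the libraries lay largely in different clusters, since 2 clusters held 943 and 617 cKO cells with 4 and 2 WT cells, and 2 others held 789 and 704 WT cells with 0 and 1 cKO cells. The part of this split in the values was not tested.

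Cfap53 had 39 UMIs outside the group in WT and 329 in cKO, a ratio of 3.09. The gap was seen in several groups of the neuronal lineage. Neuron-like cells had 13 and 145 UMIs, interneuron-like cells 5 and 78, and intermediate progenitor-like cells 0 and 42. These classes also held clusters of nearly 1 library, such as intermediate progenitor-like clusters of 825 WT with 3 cKO cells and of 8 WT with 750 cKO cells. Dnah17 had 14 UMIs in WT and 31 in cKO, all of them outside the group.

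Foxj1 outside the group was mainly in radial glia/astrocyte-like cells, the class from which ependymal cells descend. They had 135 UMIs in WT (30.4 CPM, 25.5 to 35.9) and 148 in cKO (37.0 CPM, 31.3 to 43.4). After thinning to 3000 UMIs a Foxj1 UMI was found in 26 of 574 such WT cells (4.53%, 2.98 to 6.57, 31 cells left out) and 25 of 430 cKO cells (5.81%, 3.80 to 8.46, 8 left out), and unthinned in 11.2% and 15.1%. In neuron-like cells, which should lack Foxj1, the thinned shares were 0.223% in WT and 0.328% in cKO at median depths of 10346 and 10232 UMIs, against 6677 and 8438 UMIs in the radial glia/astrocyte-like cells. Microglia-like cells had a Foxj1 UMI in 0 of 55 and 0 of 34 thinned cells, which by 3 counts allows shares of cells with a UMI of up to 5.45% and 8.82% (Clopper-Pearson upper limits 6.49% and 10.3%), and in 0 of 72 and 1 of 38 unthinned cells, too few to set a background. Levels in cycling progenitor-like cells were 1.80 CPM in WT (8 UMIs, 0.779 to 3.55) and 7.38 CPM in cKO (24 UMIs, 4.73 to 11.0), next to which OPC-like cells had 2.80 CPM (1.28 to 5.31) and 5.64 CPM (3.08 to 9.47), overlapping with the cycling cells in each library.

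In totals over all kept cells, the number of ciliated cells and the transcripts per cell both enter and are not separated. There the axoneme genes gave 24065 UMIs in WT (430 CPM) and 16819 in cKO (306 CPM), -0.49 (-0.52 to -0.46). The median over 56 genes was -1.48, beside -0.29 over all genes, and 38 of 56 were at least 2-fold lower in cKO, against 22.9% of all genes, with 2 at least 2-fold higher, against 3.92%. As sums, the outer arm heavy chains had -1.29, the inner arm heavy chains -1.60 and the Dnaic and Dnali1 chains -1.72, with medians of -1.25, -1.49 and -1.72. The median was -1.56 for the Cfap genes and -1.35 for the radial spoke genes, whose sums (-0.27 and -0.70) were weighted toward the broadly expressed members. Foxj1 had 1171 UMIs over all kept cells in WT and 562 in cKO, -1.03 (-1.18 to -0.89), the opposite side of 0 from its ratio within the group. Its ratio in all other kept cells was 0.32 (0.04 to 0.61). The group made up 0.665% of kept cells in WT and 0.184% in cKO.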

How the data were processed

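Single-cell transcriptomes were measured in 1 WT and 1 cKO library from papain-dissociated cortex. The authors deposited raw UMI counts per gene and cell for each library. Per the labels, STAR, Cell Ranger 2, Seurat and genome build mm9 were used, whereas a deposited matrix header names software version 3.0.1. A deposited combined matrix holding 94.5% of the cKO UMIs and 100% of the WT UMIs was used as an alternative only.

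Cells with at least 500 genes and at most 10% mitochondrial UMIs were kept, and doublets were removed at a Scrublet score of 0.25 (151 WT and 107 cKO cells), because the automatic threshold did not work in cKO. Clustering (scanpy 1.11.5, counts scaled to 10000 per cell, 2000 variable genes, 30 components, 15 neighbours, Leiden resolution 1) left out the axoneme, mitochondrial, ribosomal, haemoglobin and sex-linked genes. Clusters were named from marker lists and are called X-like for that reason. UMIs were summed per group and library as CPM with exact Poisson intervals. Ratios have exact conditional binomial intervals (log2) and shares have Clopper-Pearson intervals (SciPy 1.17.1, Python 3.11.15). Genes with at least 10 UMIs over both libraries together counted as measured, so a gene could pass through its WT UMIs alone. UMI totals set precision and are not a ranking of expression between genes. Limits for shares at 0 used 3 counts. TMM factors came from edgeR 4.0.16 (R 4.3.3) and no edgeR test was run. Positions were matched by gene ID to GENCODE M21 (57 of 57 axoneme genes and 27645 of 27998 genes), and near-identical copies were found with BLAST 2.17.0 (at least 95% identity over at least 1000 bases). Scripts were tested on simulated data.

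The genes, marker lists and comparisons were chosen with earlier results of these data known. Named genes were Foxj1 and Dnah6, the 3 members of each component with the most UMIs in the group, the 5 with the most outside it, and those whose interval lay wholly on 1 side of the median of all genes, with the same rule for other cilium genes, of which every regulator was also named. A few genes that met this rule are not reported here. Dnah3, Dnah8, Dnah17 and other members with high or low shares in the group were named after their values were seen. Genes with older symbols that are now Cfap genes were not members, and Heatr2 was not found.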

Additional observations from a re-analysis of the deposited data

Results flagged for a closer look

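Cfap77 and Cfap53 differed between the libraries in opposite directions inside and outside the ependymal-lineage-like cells. On the log2 scale the ratio of cKO to WT for Cfap77 was -1.27 within the group (108 and 12 UMIs) and 1.18 in all other kept cells (28 and 63 UMIs). For Cfap53 it was -1.84 within the group (93 and 7 UMIs) and 3.09 in all other kept cells (39 and 329 UMIs). With 1 library per genotype, the difference between the cell groups was not tested. Outside the group, Cfap77 had 16 and 24 UMIs in neuron-like cells and 1 and 11 UMIs in intermediate progenitor-like cells.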

How the results depend on the processing

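The 7 main results were recomputed under other settings, 3 of them chosen after seeing the data. Of 86 recomputed values, 66 stayed within the counting interval or within 1.5 times the count, 17 moved further and 3 turned direction. With no doublet removal, resolution 0.5 or 2, or other cilium genes left out of clustering, the group had the same 44 and 11 cells. Its values there repeat the main ones and are not separate checks. With the stricter filter, the summed ratio within the group was -1.44, that of Dnah6 -2.91 and that of Foxj1 -1.01 (turned). The share difference under this filter was 0.193 percentage points (turned). There 35 of 44 measured members were at least 2-fold lower, and the difference in members per cell was -1. That cluster held mostly radial glia/astrocyte-like cells. With cells picked by marker UMIs (138 WT and 104 cKO), the values were -1.16 summed, -2.04 for Dnah6 and -0.79 for Foxj1 (turned). There 40 of 52 measured members were at least 2-fold lower, with -1 member per cell. The share of all genes at least 2-fold lower was not computed for either choice of cells. Of the cells picked by marker UMIs, 99 and 94 were outside the cluster, at 750 and 738 CPM of axoneme genes. Their Foxj1 level was 53.2 CPM in WT and 65.6 CPM in cKO, beside 1386 and 1692 CPM in the picked cells of the cluster. Members detected per cell differed by -5.5 in the report, by -3.5 in the combined matrix, by -2 thinned to 1000 UMIs and by -7 unthinned. Summed members over all kept cells had -0.49 in the report, -0.46 with no filter on cells, -0.29 with the stricter filter, -0.23 with TMM factors and -0.29 as the mean of cell CPM. Of the settings chosen after seeing the data, group cells with at most 5% mitochondrial UMIs (12 and 3 cells) gave -0.51 summed and 0.59 for Foxj1. Mitochondrial UMIs had medians of 5.74% in the WT group and 6.32% in the cKO group. The cause of the shifts other than the cell selection was not tested. No paired analysis was possible because each genotype had 1 library and no test was run. Leaving out a replicate was not possible for the same reason. With 201517 UMIs in the cKO group, members with 10 UMIs or fewer there have wide intervals.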

Other observations

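Ependymal-lineage markers, none of which the symbol rule takes, differed among themselves within the group. The genes named here were chosen after their values were seen. The 13 markers summed to 6330 UMIs in WT and 1298 in cKO, a log2 ratio of -0.39 (-0.48 to -0.30), with 11 of 13 lower in cKO. Ccdc153 had 351 and 32 UMIs, -1.56 (-2.13 to -1.04), and Tmem212 had 251 and 29, -1.22 (-1.83 to -0.66). Dynlrb2, a dynein light chain of the roadblock family, had 1208 and 309 UMIs, -0.07 (-0.26 to 0.11). Rarres2, which encodes the secreted protein chemerin, had 189 and 85 UMIs, 0.74 (0.36 to 1.12), and Nme5 had 345 and 124, 0.42 (0.11 to 0.72). These differences have no replicate check.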
